A study of Mus musculus with 6106 samples.

Results

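Foxp3 and 6 further genes that mark regulatory T cells (Tregs) were followed across single splenic Tregs sorted by a reporter of T cell receptor (TCR) signalling. The 7 genes were chosen by name as Treg identity genes, out of 23725 genes counted and with earlier results of these data known: Foxp3, Ikzf2, Ikzf4, Gpr83, Nrp1, Izumo1r and Capg. Droplet-based single-cell RNA sequencing (inDrops) counts transcripts with unique molecular identifiers (UMIs), short random tags that let amplified copies of 1 molecule be counted once. All cells came from the spleens of male B6 Nr4a1-Gfp Foxp3-Ires-Thy1.1 mice aged 10 months. In these mice green fluorescent protein (GFP) reports Nr4a1, a gene switched on by TCR signalling, and the surface variant Thy1.1 is made from the Foxp3 transcript. Every group was sorted as DAPI- TCRb+ CD4+ FoxP3-Thy1.1+ and differed from the others in GFP alone, with GFPlow at 0 to 20%, GFPmed at 40 to 60% and GFPhigh at 80 to 100% of the reporter range. Each bin is 1 library, and the labels do not say how many mice it holds, so the bins have no replicates and no test between them was made. Intervals in brackets are 95% intervals that cover counting error only, and the 3 pairs of bins share libraries.

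Foxp3 is the forkhead transcription factor that specifies the Treg lineage, and its loss abolishes Treg function. Tregs made in the thymus are further marked by Ikzf2 (Helios) and Nrp1 (neuropilin 1), whereas Ikzf4 (Eos) is a partner of Foxp3 in silencing genes of conventional T cells. Gpr83 is an orphan-type G protein-coupled receptor, Izumo1r encodes folate receptor 4, and Capg caps actin filaments, and all are used as transcripts that set Tregs apart from other CD4 T cells.

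Of the 5435 cells with at least 500 UMIs, which the comparisons used, 1537 came from GFPmed, 1775 from GFPhigh and the rest from GFPlow. Cells of GFPmed were sampled more deeply, with a median of 750 detected genes against 622 in GFPhigh, and the median depth was 1085 UMIs in GFPlow and 1129 in GFPhigh. The bins summed to 2435870, 2512277 and 2270376 UMIs, and each level below is a gene's sum in a bin scaled to 1000000 UMIs (UPM). Between 20 and 29 cell barcodes were shared by each pair of libraries. All 7 T cell markers were present in each bin, with a summed level from 2749 to 3201 UPM. Summed markers of other cells stood at 89.5 to 106.3 UPM for the 9 B cell markers, 83.99 to 348 for the 5 plasma cell markers, 73.9 to 168.8 for the 8 myeloid markers, 100.0 to 256.7 for the 8 erythroid markers and 49.7 to 78.8 for the 6 CD8 T or NK markers. Pax5, S100a8 and S100a9 were at 0 in all bins, Lyz2 and Csf1r at 0 in GFPhigh, Sdc1 at 0 in GFPmed and Ncr1 at 0 in the outer bins. The myeloid and erythroid sums were highest in GFPmed and the plasma cell sum in GFPhigh. Jchain alone, at 12.7, 2.79 and 212.7 UPM in GFPlow, GFPmed and GFPhigh, made up most of the plasma cell sum in GFPhigh. Xbp1 was the largest part of that sum in the lower bins. Cst3, at 67.3, 100.7 and 71.4 UPM in the same order, made up most of each myeloid sum, and Lyz2 stood at 31.4 UPM in GFPmed. The part of other lineages in the values below was not tested beyond the results without 69 gated cells. These carried at least 3 UMIs from at least 2 markers of 1 list among B cell, plasma cell, myeloid and erythroid. Xbp1, Prdm1 and Cst3 were not used for this gate, and neither were the CD8 T or NK markers. By the plasma cell list the gate held 1 cell in each bin. Nr4a1 itself followed the sort, at 35.7, 92.7 and 340.5 UPM in GFPlow, GFPmed and GFPhigh.

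Foxp3 transcripts did not follow the order of the reporter and were lowest in the middle bin. Foxp3 (chromosome X, 7573644 to 7595245, plus strand, mm10) had 949, 797 and 815 UMIs in GFPlow, GFPmed and GFPhigh, which is 389.6 [365, 415], 317 [296, 340.1] and 359 [334.7, 384] UPM. GFPlow was highest and GFPmed lowest, and the outer bins differed by a log2 ratio of -0.12 [-0.25, 0.02]. GFPmed was lower than GFPlow by a log2 ratio of -0.30 [-0.43, -0.16], and GFPhigh was above GFPmed by 0.18 [0.04, 0.32]. The size of the latter step depended on the scaling, and the median over all tested genes in that pair was 0.08. For Foxp3 it was 0.11 with TMM scaling, 0.10 with median-of-ratios scaling and 0.12 without ribosomal protein genes. With its interval moved down by as much, this step lay within counting error under each of these scalings. Cd4, the coreceptor gene used in the sort, also stood lowest in GFPmed, at 558, 384 and 465 UPM in the same order. On the opposite strand Foxp3 is overlapped by Ccdc22 and Ppp1r3f, and whether the counting used strand is not given in the sources used here.

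At least 1 Foxp3 UMI was counted in 643 cells of GFPlow (30.3%), in 507 of the 1537 from GFPmed (32.99%) and in 541 of the 1775 from GFPhigh (30.5%). Because GFPmed cells were sampled more deeply, each cell was also thinned to 500 UMIs drawn at random, after which the shares were 17.004% [15.4, 18.7], 12.4% [10.8, 14.2] and 16.1% [14.4, 17.9]. The share was thus highest in GFPmed before thinning and lowest there after it, and the order of the thinned shares is that of the UPM. In the 69 cells with markers of another lineage the thinned share was 1.45% [0.0367, 7.81], at a median depth of 1248 UMIs against 1208 in the remaining cells. No cell held more than 7 Foxp3 UMIs, and 68, 71 and 70 cells of the 3 bins held at least 3. The sort required the reporter of Foxp3 in every cell, so a cell without a Foxp3 UMI is one in which none was counted at this depth.

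Nearly every Foxp3 UMI came with a Thy1 UMI in the same cell. Thy1 encodes the surface glycoprotein Thy1 of T cells, whose Thy1.1 variant is the Foxp3 reporter of this strain. Of the 1691 cells with a Foxp3 UMI, all but 16 also held a Thy1 UMI (99.1% [98.5, 99.5]), against 1823 of the 3744 cells without one (48.7% [47.1, 50.3]). Cells with a Foxp3 UMI were also somewhat deeper, with medians of 1348 and 1136 UMIs. The Thy1 count was at least as large as the Foxp3 count in 1657 of the 1691 cells (97.99%) and smaller in 34. Ptprc, the gene of the leukocyte antigen CD45, was detected in a similar share of all cells (66.9%, against 64.4% for Thy1), yet its count reached that of Foxp3 in 60.0% of the same 1691 cells.

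The relation was close to 1 further Thy1 UMI for each Foxp3 UMI. Cells with 0, 1, 2 and 3 Foxp3 UMIs held on average 1.09, 2.37, 3.41 and 4.36 Thy1 UMIs. It was present in each library, since a Thy1 UMI was held by 638 of 643 cells with a Foxp3 UMI in GFPlow, 499 of 507 in GFPmed and 538 of 541 in GFPhigh, although the share among cells without Foxp3 was 59.2% in GFPlow, 49.5% in GFPmed and 35.4% in GFPhigh. When 1 Thy1 UMI was taken off for each Foxp3 UMI, the Thy1 level of cells with Foxp3 was 1279, 901 and 641 UPM in the 3 bins, beside 1200.5, 791 and 596 UPM in cells without Foxp3. Thy1 in whole bins stood at 1616, 1150 and 971 UPM, and at 1226, 832 and 612 UPM after the same subtraction. Whether a transcript of the reporter allele is counted under both names was not tested, and these counts per cell were examined after the co-detection of Thy1 had been seen.

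The Ikaros family genes Ikzf2 and Ikzf4 were higher in GFPhigh than in GFPlow, by different steps. Ikzf2 (chromosome 1, 69531214 to 69687245, minus strand), whose product Helios is a zinc finger transcription factor of thymic Tregs, had 4301 UMIs over the 3 bins. Its level was 506 [478, 535], 508 [480.4, 537] and 789.7 [754, 827] UPM in the same order of bins. Over whole bins GFPlow and GFPmed did not differ beyond counting error, with a log2 ratio of 0.01 [-0.11, 0.12]. GFPhigh lay above both, 1.56-fold over GFPlow and 1.55-fold over GFPmed. With cells of at least 1000 UMIs alone the log2 ratio of GFPmed over GFPlow was 0.12. Outside the effector gate described below it was 0.29 [0.15, 0.43], and inside that gate -0.05 [-0.27, 0.16]. The thinned share of cells with Ikzf2 was 19.2%, 18.9% and 27.2% (30.7%, 37.4% and 44.8% without thinning), against 5.80% [1.60, 14.2] in the cells of other lineages. Ikzf2 thus separated GFPhigh from the lower bins both by level and by share of cells.

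Ikzf4 (chromosome 10, 128630843 to 128645991, minus strand), which encodes the Foxp3 partner Eos, had 349 UMIs in all, 75 of them in GFPlow. Its level was 30.8 [24.2, 38.6], 42.99 [35.3, 51.9] and 73.1 [62.4, 85.1] UPM, so that each bin was above the one before it. GFPhigh was 2.37-fold [1.80, 3.16] above GFPlow and 1.70-fold [1.33, 2.19] above GFPmed, and GFPmed was 1.39-fold [1.03, 1.90] above GFPlow. Thinned shares of 1.55%, 2.54% and 3.44% of cells (2.92%, 5.92% and 7.83% unthinned) all lay below the 5.21% that 0 of 69 cells of other lineages still allows. Those cells held no Ikzf4 UMI without thinning either, and against the same limit the unthinned share lay above in GFPhigh, with an interval of [6.62, 9.18], below in GFPlow, and across it in GFPmed [4.79, 7.22]. Of 13 relatives of the 7 genes taken from the Ikaros, forkhead, neuropilin, folate receptor and gelsolin families, 9 had at least 50 UMIs over the 3 libraries. In GFPhigh over GFPlow 1 of the 9 was at least 1.5-fold higher (9.79% of all genes) and 1 lower (6.49%), counts near those shares. These were Foxp4 with a log2 ratio of 1.11 [0.62, 1.62] and the gelsolin family gene Svil with -0.86 [-1.24, -0.50]. Foxp4 is a forkhead relative of Foxp3, and its levels were 21.3, 29.1 and 46.2 UPM.

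Gpr83 had the largest ratio among the 7 genes. Gpr83 (chromosome 9, 14860210 to 14870789, plus strand), the receptor gene, had 381 UMIs, of which 43 were in GFPlow and 130 in GFPmed. The levels were 17.7 [12.8, 23.8], 51.7 [43.2, 61.4] and 91.6 [79.6, 104.9] UPM. The 3 intervals do not overlap. GFPhigh was 5.14-fold [3.72, 7.39] above GFPlow, with 2.91-fold [2.06, 4.24] between GFPlow and GFPmed and 1.77-fold [1.42, 2.22] between GFPmed and GFPhigh. Thinned shares were 0.707%, 2.34% and 3.77% of cells (1.88%, 6.96% and 9.07% unthinned). The thinned shares lay below the same 5.21% that the cells of other lineages allow for Ikzf4. Unthinned, 1 of those 69 cells held Gpr83 (1.45% [0.0367, 7.81]), and the interval of the unthinned GFPhigh share, [7.77, 10.5], just overlapped it. Most cells with Gpr83 held a single UMI, and 3, 22 and 37 cells of the 3 bins held more.

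Izumo1r was graded in the same order over a smaller range. Izumo1r (chromosome 9, 14885814 to 14903949, minus strand), the folate receptor 4 gene, had 1992, 2504 and 3304 UMIs, or 818 [782, 854], 997 [958, 1037] and 1455 [1406, 1506] UPM. Each step lay beyond counting error, at 1.22-fold from GFPlow to GFPmed and 1.46-fold from GFPmed to GFPhigh, and the outer bins differed 1.78-fold. Its thinned share was 25.5%, 32.3% and 39.5% of cells (39.001%, 52.96% and 56.9% unthinned), against 1.45% [0.0367, 7.81] in the cells of other lineages.

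Gpr83 and Izumo1r are neighbours. They lie on opposite strands with their 3' ends facing each other, 15.0 kb apart, and GENCODE M21 places 0 genes between them. Of the 9 genes within 200 kb, 5 had at least 50 UMIs. Besides this pair these were Panx1, which encodes a membrane channel (log2 ratio of the outer bins 0.46 [0.13, 0.80]), the ankyrin repeat gene Ankrd49 (0.21 [-0.47, 0.90]) and the DNA repair gene Mre11a (-0.01 [-0.88, 0.84]). None of those 3 was past 1.5-fold, and the neighbourhood was examined after the levels of both genes were known.

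Promoter windows of 250 bases before the start site were read from RefSeq (GRCm38.p6) for 5 of the 7 genes, in 6 windows, since Foxp3 has a pair of start sites there. Windows for Gpr83, the gene with the largest ratio, and for the second Foxp3 start site, the gene that defines the lineage, are printed 5′ to 3′ along the gene, with the motif match in capitals. Gpr83 lies at chr9:14859960-14860209 on the plus strand and Foxp3 at chrX:7580233-7580482 on the plus strand.
Gpr83: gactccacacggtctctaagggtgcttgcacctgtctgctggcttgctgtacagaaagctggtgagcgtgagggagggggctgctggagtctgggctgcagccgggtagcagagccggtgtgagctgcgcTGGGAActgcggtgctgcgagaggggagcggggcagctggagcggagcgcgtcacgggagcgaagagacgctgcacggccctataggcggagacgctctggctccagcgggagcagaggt
Foxp3: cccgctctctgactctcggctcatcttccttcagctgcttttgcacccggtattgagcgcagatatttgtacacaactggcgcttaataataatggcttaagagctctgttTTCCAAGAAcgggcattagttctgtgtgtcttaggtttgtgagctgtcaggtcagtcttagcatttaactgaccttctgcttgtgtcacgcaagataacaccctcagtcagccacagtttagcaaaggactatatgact
The capitals in Gpr83 are a match to TGGGAA, the core bound by Ikaros family proteins, at -120 to -115 from the start site, which 21.6% of 32851 promoters of this length hold. In Foxp3 they are a match to the Stat5 site TTCNNNGAA, read as TTCCAAGAA, at -139 to -131, which 7.02% of promoters hold. Capg had 2 matches to TGGGAA, at -138 to -133 and -58 to -53. Izumo1r had the Runx core TGTGGT on the opposite strand at -127 to -122 (14.0% of promoters), in a stretch that GENCODE M21 annotates as transcribed. Nrp1 and the first Foxp3 window had no match. The Nr4a site AAAGGTCA, the forkhead core TGTTTAC and the AP-1 site TGANTCA were searched on both strands and found in 0 of the 6 windows, against 1.34%, 3.17% and 6.75% of all promoters. A match describes these letters and was not tested as a binding site.

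Nrp1 differed little between whole bins. Nrp1 (chromosome 8, 128358604 to 128503363, plus strand), a surface receptor for semaphorins and vascular endothelial growth factor, had 794, 700 and 800 UMIs, or 326 [304, 349], 278.6 [258.4, 300.1] and 352 [328.4, 378] UPM. The outer bins did not differ beyond counting error, with a log2 ratio of 0.11 [-0.03, 0.26], and GFPmed was the lowest, 0.85-fold [0.77, 0.95] of GFPlow. Thinned shares were 12.01%, 10.8% and 13.4% of cells (20.3%, 23.5% and 23.4% unthinned), against 2.90% [0.353, 10.1] in the cells of other lineages. With cells of at least 1000 UMIs alone the ratio of the outer bins was 0.27 and that of GFPmed over GFPlow -0.04 on the log2 scale. Differences inside and outside a group of effector-type cells, whose share of cells was itself 22.2% in GFPlow and 7.49% in GFPhigh, had opposite signs and are given below.

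Capg (chromosome 6, 72544391 to 72562983, plus strand), the actin-capping gene, did not differ between bins beyond counting error. It had 917 UMIs in all, with levels of 138.3 [123.97, 153.9], 119.02 [106, 133.3] and 123.8 [109.7, 139.1] UPM, and the interval of each ratio between bins held 0 on the log2 scale. Its thinned share of 6.45%, 5.92% and 5.13% of cells (13.1%, 15.5% and 11.8% unthinned) stood beside 7.25% [2.39, 16.1] in the cells of other lineages. Without thinning the share in those cells was 18.8% [10.4, 30.1], so for Capg it did not lie below that of the bins. Of the 69 cells 44 carried B cell markers and 11 myeloid markers. Which of these lineages held Capg was not tested.

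**Figure D1:**
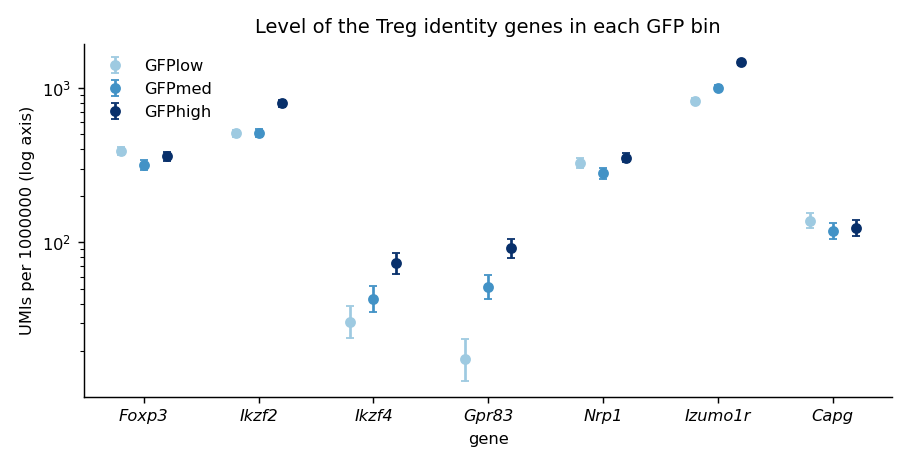
Level of each of the 7 genes in UMIs per 1000000 on a log axis, in GFPlow, GFPmed and GFPhigh from light to dark, 1 library per bin, with exact 95% Poisson intervals. Gpr83 goes from 17.7 to 91.6 and Izumo1r from 818 to 1455, Ikzf2 is higher in GFPhigh alone, and Foxp3 stays between 317 and 389.6.

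Taking the 7 genes together, 4 were at least 1.5-fold higher in GFPhigh than in GFPlow (Gpr83, Ikzf4, Izumo1r and Ikzf2), where 9.79% of the 8633 genes with at least 50 UMIs were, and 0 were at least 1.5-fold lower, where 6.49% were. Their median log2 ratio was 0.64, beside 0.04 over all genes tested. In GFPmed over GFPlow 1 was higher (Gpr83; 5.61% of all genes) and 0 lower (6.14%), with a median of 0.01 beside -0.04. In GFPhigh over GFPmed 3 were higher (Gpr83, Ikzf4 and Ikzf2; 8.53% of all genes) and 0 lower (4.51%), with a median of 0.55 beside 0.08. All 7 ratios were above 0 in that pair, from 0.06 for Capg to 0.82 for Gpr83. Capg lay under the median over all genes, with 47.1% of the tested genes below it. Its ratio was -0.03 with equal weight per cell, -0.01 with TMM scaling, -0.02 with median-of-ratios scaling and -0.006 without ribosomal protein genes. Izumo1r with 0.55 fell just under the threshold of 0.58. The call of Ikzf2 was close to that threshold. With equal weight per cell its ratio of the outer bins was 0.57, and that of GFPhigh over GFPmed was between 0.56 and 0.58 with equal weight, TMM scaling, median-of-ratios scaling or ribosomal protein genes left out, which ends both calls.

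**Figure D2:**
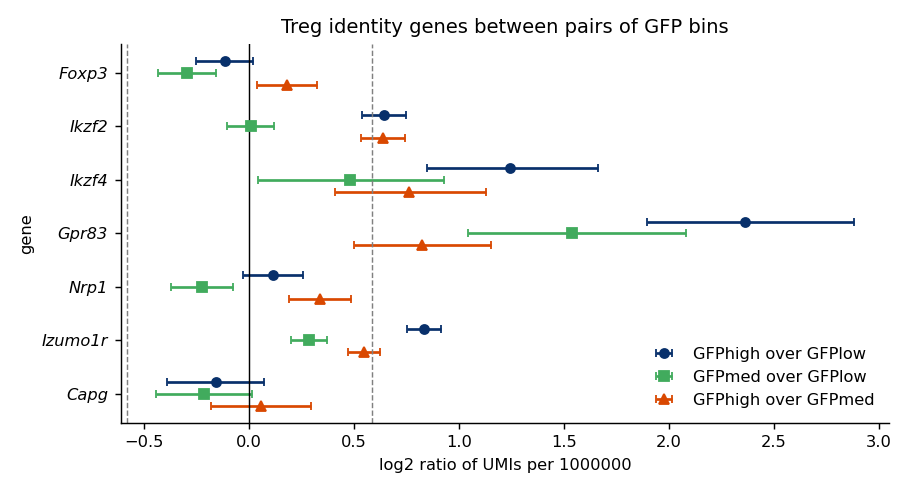
Log2 ratio of UMIs per 1000000 for the 7 genes between GFPhigh and GFPlow (circles), GFPmed and GFPlow (squares) and GFPhigh and GFPmed (triangles), with exact 95% intervals for counting error. Dashed lines mark 1.5-fold. Gpr83 reaches 2.36 between the outer bins, and no symbol lies at or beyond the lower dashed line.

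Treg identity genes were then compared cell by cell with Foxp3. For each gene the number of cells holding both it and Foxp3 was divided by the number expected if the 2 were independent among cells of the same bin and depth band. At full depth all 6 genes lay above 1, but only slightly. Ikzf2 was highest, with 756 cells against 661.7 expected, a ratio of 1.14 [1.06, 1.23]. It was followed by Ikzf4 (1.11 [0.91, 1.33]), Gpr83 (1.09 [0.90, 1.30]), Nrp1 (1.07 [0.97, 1.17]), Izumo1r (1.05 [0.98, 1.12]) and Capg (1.05 [0.93, 1.19]). Their median was 1.08, beside 1.02 over 6640 genes detected in at least 100 cells, of which 5% lay above 1.17. None of the 6 reached a ratio of 1.5, and 0.0151% of the 6640 genes did, a single gene. Of the further Treg signature genes, 18 had a value, from 0.89 for Swap70 to 1.37 for Entpd1, with a median of 1.12 and 16 above 1. Among them were 1.19 [1.10, 1.29] for Il2ra (the interleukin 2 receptor alpha chain), 1.14 [1.03, 1.25] for Tnfrsf18 (the receptor GITR) and 1.07 [0.93, 1.21] for Ctla4 (an inhibitory receptor). Cd4 gave 1.03 [0.96, 1.11].

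The ratio for Ikzf2 was similar in each bin, at 1.20 [1.06, 1.36] in GFPlow, 1.13 [0.98, 1.28] in GFPmed and 1.11 [0.99, 1.25] in GFPhigh. In GFPlow the ratios of the other 5 genes ran from 1.08 for Izumo1r to 1.45 [0.87, 2.27] for Gpr83, the latter on 19 cells. In GFPhigh they ran from 0.90 [0.70, 1.16] for Capg to 1.09 for Ikzf4. By level, Ikzf2 was higher in cells with a Foxp3 UMI than in cells without in each bin, at 629.7 against 446 UPM in GFPlow, 569 against 472 in GFPmed and 879.9 against 742 in GFPhigh. Over all bins its level was 548 UPM in cells with 0 Foxp3 UMIs, 667 with 1 and 718 with at least 2. Izumo1r was higher in cells with Foxp3 in GFPlow (905 against 776 UPM) and GFPmed (1167 against 896) and lower in GFPhigh (1364 against 1504). Capg stood at 163.4 against 126 UPM in GFPlow and 97.9 against 137.55 in GFPhigh. At 1.5-fold, 1 of the 6 genes was higher in cells with Foxp3 in GFPlow (Gpr83, on 20 and 23 UMIs; 9.19% of all genes), and 0 in GFPmed (9.21%) and GFPhigh (8.49%). None was lower, with 8.70%, 9.24% and 9.53% of all genes.

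The 10 genes most like Foxp3 by this measure, among 4255 named genes detected in at least 200 cells, were led by Thy1 (1.47 [1.40, 1.55]). After it came Cd7 (1.32), Mettl20 (1.31), Socs2 (1.31), Foxr1 (1.30), Pgrmc2 (1.30), Fam46a (1.30), Pon2 (1.27), Col4a3bp (1.27) and Fmnl3 (1.26). Socs2, a suppressor of cytokine signalling, was detected in 532 cells and had the interval [1.15, 1.49], and the others after Thy1 were detected in fewer cells.

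Pairs among the 7 genes were then counted in the same way. Over the 21 pairs of the 7 genes the median ratio was 1.10, 18 pairs lay above 1 and the range was 0.94 to 1.40. Most members also lay slightly above 1 with genes at large. The median ratio with all genes was 1.02 for Foxp3, 1.03 for Ikzf2, Ikzf4 and Nrp1, 1.01 for Izumo1r and 0.99 for Gpr83. The highest pair was Ikzf2 with Nrp1, in 654 cells against 468 expected (1.40 [1.29, 1.51]). Pairs of Ikzf2 with Ikzf4 (1.24 [1.05, 1.45]), of Nrp1 with Capg (1.21 [1.05, 1.38]) and of Ikzf2 with Capg (1.21 [1.08, 1.34]) followed with intervals above 1, while Ikzf4 with Capg (1.21 [0.90, 1.59]) rested on 51 cells. Gpr83 was at 0.94 [0.59, 1.42] with Ikzf4, 0.96 with Capg and 0.97 with Nrp1, on 22, 45 and 75 cells. It was at 1.11 with Izumo1r, 1.09 with Foxp3 and 1.08 with Ikzf2. The interval of each of these pairs of Gpr83 held 1. After thinning, at least 2 of the 7 genes were seen in 19.8%, 21.1% and 29.6% of the cells of GFPlow, GFPmed and GFPhigh (41.5%, 53.7% and 57.5% unthinned). Without thinning, 969 GFPlow cells (45.6%), 746 GFPmed cells (48.5%) and 955 GFPhigh cells (53.8%) had no Foxp3 UMI but a UMI of another of the 7 genes.

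**Figure D3:**
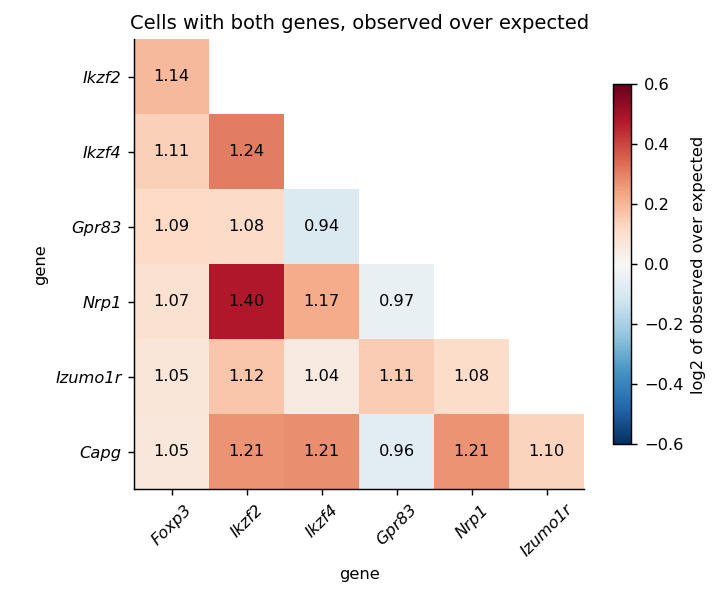
Cells holding both genes of a pair, observed over expected within bin and depth band, for the 21 pairs of the 7 genes, printed in each square and coloured by its log2. Ikzf2 with Nrp1 is highest at 1.40, Foxp3 (left column) stays between 1.05 and 1.14, and Gpr83 is below 1 with Ikzf4, Nrp1 and Capg.

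The genes most like the other members differed between them. For Nrp1 they were S100a4 (1.94 [1.63, 2.29]) and Itgb1 (1.86 [1.68, 2.06]), for Capg S100a4 (1.94) and S100a6 (1.82), and for Ikzf2 Cxcr3 (1.80), S100a4 (1.76) and Serpina3g (1.69). S100a4 and S100a6 encode calcium-binding proteins and Itgb1 the integrin beta 1 chain, genes of effector-type Tregs, and Cxcr3 is a chemokine receptor. Izumo1r gave Cst7 (1.36), Tspan3 (1.28) and Tiam1 (1.25), Gpr83 gave Pja1 (1.69), Cpne1 (1.68) and Rbm33 (1.66), and Ikzf4 gave Dhx30 (2.04), Ebag9 (1.88) and Eef2kmt (1.86), the last 3 on 24 to 27 cells. Nrp1, Ikzf2 and Izumo1r were also unevenly spread over cells. If its UMIs fell on cells in proportion to depth, Nrp1 would be seen in 30.5%, 35.1% and 34.7% of cells of the 3 bins, and the observed share was 0.67 of that in each. For Izumo1r the fraction was 0.67, 0.70 and 0.72, for Ikzf2 0.72, 0.70 and 0.75 and for Foxp3 0.86, 0.85 and 0.87, beside a median over genes with at least 50 UMIs in the bin of 0.89, 0.86 and 0.87.

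The cells were next divided by 2 gene lists that hold none of the 7 genes, each read on the thinned counts with a threshold of 2 UMIs. Such a gate is a range of a score and not a cell type. The effector list holds S100a4, S100a6 and Itgb1, named above among the genes most like Nrp1, Capg or Ikzf2 in these cells. Higher levels of Nrp1, Capg and Ikzf2 inside that gate thus partly restate the co-detection. The effector gate (S100a4, S100a6, S100a10, Ccr2, Itgae, Klrg1, Itgb1) took in 22.2%, 10.8% and 7.49% of the cells of GFPlow, GFPmed and GFPhigh, which is 471 cells in the first. Of these gated cells 41.6%, 56.02% and 66.9% were exactly at the threshold. In GFPlow Nrp1 stood at 798 [723, 879] UPM inside the gate and 197.8 [178.4, 218.8] outside, a log2 ratio of 2.01 [1.81, 2.22]. Ikzf2 was at 1006 against 370.04 UPM (1.44 [1.28, 1.61]) and Capg at 221.2 against 115.9 (0.94 [0.60, 1.26]). Foxp3 was also higher inside, at 494 against 361.2 UPM (0.45 [0.24, 0.66]), whereas Izumo1r was close to level at 768 against 831. Gpr83 went the other way, with 1 UMI inside the gate and 42 outside, or 1.92 [0.0487, 10.7] against 21.9 [15.8, 29.6] UPM. The median depth was 1018 UMIs inside and 1107.5 outside.

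Counted at 1.5-fold, 4 of the 7 genes were higher inside the effector gate of GFPlow (Nrp1, Ikzf2, Capg and Ikzf4), where 20.6% of all genes were, and 1 lower (Gpr83; 11.1%). In GFPmed 3 were higher (Nrp1, Ikzf2 and Capg; 25.1%) and 1 lower (Gpr83; 12.6%), and in GFPhigh 2 were higher (Capg and Ikzf2; 25.0%) and 0 lower (16.4%). The log2 ratio of Nrp1 inside over outside was 2.01 in GFPlow, 1.35 [1.09, 1.60] in GFPmed and 0.58 [0.24, 0.90] in GFPhigh, that of Ikzf2 was 1.44, 1.10 and 0.98, and that of Capg stayed at 0.94, 0.93 and 1.27. Gpr83 was at 21.9 against 55.4 UPM in GFPmed, on 6 UMIs inside, and at 87.2 against 91.98 in GFPhigh.

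The bins were therefore compared inside and outside the gate, a comparison added after these values were seen. Nrp1 was lower in GFPhigh than in GFPlow inside the gate, at 506 against 798 UPM (log2 ratio -0.65 [-1.01, -0.32]), and higher outside it, at 339.8 against 197.8 UPM (0.78 [0.60, 0.96]). Ikzf2 was higher in GFPhigh on both sides, by 0.53 [0.30, 0.75] inside and 0.99 [0.86, 1.12] outside. Izumo1r was higher by 1.23 [1.01, 1.45] inside and 0.78 [0.69, 0.87] outside, and Gpr83 by 2.06 [1.58, 2.59] outside. For Foxp3 the log2 ratio was -0.34 [-0.75, 0.05] inside, within counting error, and -0.02 [-0.17, 0.13] outside. With the gate at 3 UMIs the ratio inside turned to 0.27 [-0.35, 0.82]. At 1.5-fold, 5 of the 7 genes were higher outside the gate (Gpr83, Ikzf4, Ikzf2, Nrp1 and Izumo1r), where 11.3% of all genes were, and 0 lower (6.12%). Inside, 2 were higher (Gpr83 and Izumo1r; 25.0%) and 1 lower (Nrp1; 21.9%). Cells inside the gate held on average 3.90, 2.98 and 2.65 UMIs of the 7 gate genes in the 3 bins, so the gate took in cells of lower score in GFPhigh, and the part of this in the ratios was not tested.

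**Figure D4:**
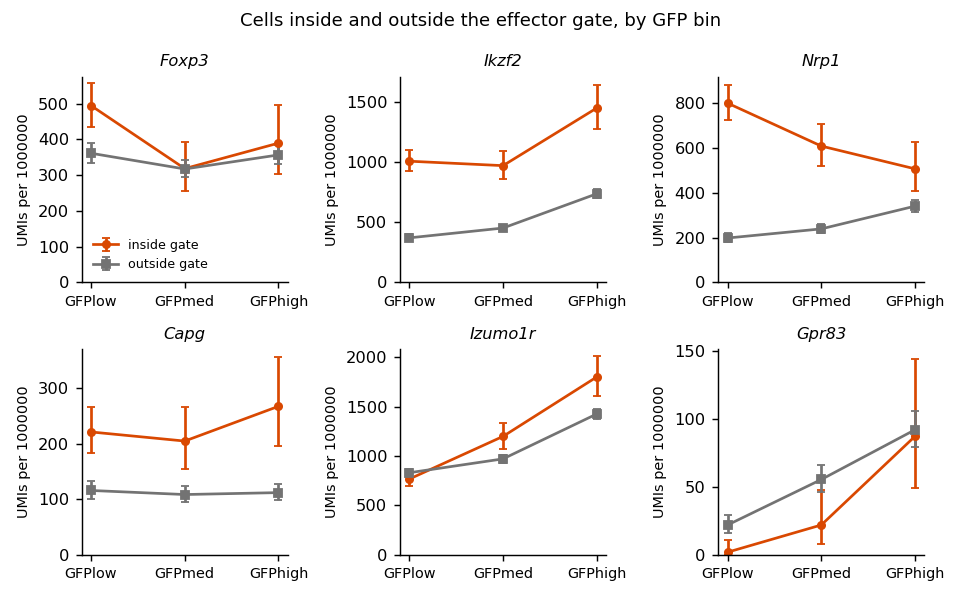
Level in UMIs per 1000000 of 6 genes in cells inside (circles) and outside (squares) the effector gate in each GFP bin, with exact 95% Poisson intervals and axes that start at 0. Nrp1 goes down from 798 to 506 inside the gate and up from 197.8 to 339.8 outside it, and Ikzf2 is higher inside in every bin.

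The TCR-stimulated gate (Nr4a1, Nr4a3, Egr1, Egr2, Tnfrsf9, Cd83, Myc) took in 9.97% of GFPhigh cells and 48 cells in each of the lower bins, so the values there rest on few UMIs. In GFPhigh Ikzf2 was above in the gate, at 977 against 768 UPM (log2 ratio 0.35 [0.14, 0.55]). The intervals of the other 6 genes held 0, with ratios from -0.26 for Ikzf4 to 0.19 for Capg. Gpr83 stood at 99.0 against 90.8 UPM, Izumo1r at 1468 against 1454 and Foxp3 at 310.03 against 365. In GFPmed Ikzf2 was above in the gate by 0.82 [0.43, 1.17] and Capg, on 18 UMIs inside, by 1.08 [0.27, 1.73], and the intervals of the other 5 held 0. In GFPlow the ratios ran from -0.72 for Nrp1 to 0.68 for Gpr83, the latter on 1 UMI inside, and the interval of each of the 7 genes held 0. The level of Gpr83 there was 19.1 against 17.6 UPM, so its ratio came largely from the 0.5 UMI added to each count.

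Other genes of the Treg program were counted for comparison. Of 24 further Treg signature genes 22 were measured, 13 were at least 1.5-fold higher in GFPhigh than in GFPlow (9.79% of all genes) and 4 lower (6.49%), with a median log2 ratio of 0.95. Penk, which encodes proenkephalin, led with 6.16, 8.36 and 126.9 UPM in GFPlow, GFPmed and GFPhigh, followed by the costimulatory receptor gene Tnfrsf9 with 20.5, 49.8 and 271.3. Against the same shares of all genes, of 24 regulators and partners of Foxp3 23 were measured, 5 were higher and 2 lower, with a median of 0.17. Stat5a, a mediator of interleukin 2 signals, stood at 34.5, 46.6 and 69.2 UPM and Bach2, a repressor that restrains effector differentiation, at 91.96, 114.2 and 170.5 UPM. Of 11 genes held low in Tregs 6 were measured, 0 were higher and 2 lower, with a median of -0.03. Il7r, the interleukin 7 receptor gene, went from 193.8 to 73.997 UPM between GFPlow and GFPhigh, and Satb1, a genome organiser, from 341 to 461.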

How the data were processed

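The deposited table holds raw UMI counts per gene and cell. Per the labels' protocols, the authors encapsulated sorted cells by the InDrops protocol with oligo dT priming and sequenced them on a NextSeq500. Per the submitters' processing notes, TopHat2, SAMtools and the mm10 genome were used; versions, annotation and the rule for collapsing UMIs are not given in the sources used here. The counts were whole numbers and sum to 98.7% of the UMIs given in the labels. All 6106 columns matched a labelled cell. Cells with at least 500 UMIs (5435) were used, with no doublet removal.

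UMIs were summed per bin and scaled to 1000000. Ratios add 0.5 UMI to each count. Intervals are exact Poisson (levels), exact conditional binomial (ratios) and exact Clopper-Pearson (shares) at 95%. A count of 0 allows 3 counts. Thinning drew 500 UMIs per cell without replacement. Depth bands for co-detection start at 500, 1000, 1500, 2000 and 3000 UMIs. A gene was called at 1.5-fold among genes with at least 50 UMIs. Scripts used Python 3.11.15, scipy 1.17.1 and edgeR 4.0.16 (TMM factors alone) and were tested on simulated data. Positions are from GENCODE M21 and promoters from RefSeq.

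Named genes were the 7 members, the 10 genes most like Foxp3, those among the 3 most like each other member that are reported here, and from each list the 2 with the largest ratio of GFPhigh over GFPlow and at least 100 UMIs; Il2ra, Tnfrsf18, Ctla4, Entpd1, Swap70, Ptprc, Panx1, Ankrd49 and Mre11a were named beyond that rule. The members and lists were chosen with earlier results of these data known. Alternatives covered the depth minimum, scaling, weighting of cells, added counts, thinning depth and removal of other-lineage cells. A further gate and 1 gene are not reported here.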

Additional observations from a re-analysis of the deposited data

Results flagged for a closer look

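Cells with fewer than 500 UMIs, 671 in all with 269809 UMIs, were left out of the comparisons but held transcripts of each of the 7 genes above the 11.1 UPM that a count of 0 allows there. The level in them was 411.4 UPM for Foxp3, 775 for Ikzf2, 51.9 for Ikzf4, 63.01 for Gpr83, 408 for Nrp1, 1134 for Izumo1r and 122.3 for Capg.

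Nrp1 had opposite differences between GFPhigh and GFPlow inside and outside the effector gate, with log2 ratios of -0.65 and 0.78. The difference between them was not tested, because each bin is 1 library. With the gate at 3 UMIs, an alternative chosen after seeing the data, the ratios were -0.73 [-1.37, -0.19] inside, where 44 GFPhigh cells remained, and 0.54 [0.37, 0.70] outside.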

How the results depend on the processing

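Of the log2 ratios of the 7 genes and their medians, recomputed under 9 alternatives, 8 left the counting interval of the reported value and 0 called ratios changed sign. With cells of at least 1000 UMIs the median of the 7 genes was 0.78 for GFPhigh over GFPlow and 0.12 for GFPmed over GFPlow, where 2 genes in place of 1 were called higher, and Nrp1 moved to 0.27 and -0.04. With median-of-ratios scaling the median for GFPhigh over GFPmed was 0.47. At 2-fold, 2 genes in place of 4 were called higher in GFPhigh over GFPlow, where 2.77% of all genes were in place of 9.79%. In GFPhigh over GFPmed 0 in place of 3 were called higher, where 1.88% of all genes were in place of 8.53%. At 1.5-fold the Ikzf2 call was lost in GFPhigh over GFPlow with equal weight per cell (3 genes in place of 4), and in GFPhigh over GFPmed with equal weight, TMM, median-of-ratios scaling or without ribosomal protein genes (2 in place of 3). Thinned to 1000 UMIs, the Foxp3 share was 27.7%, 24.9% and 26.5% in GFPlow, GFPmed and GFPhigh. The median co-detection of the 6 genes with Foxp3 was 1.19 within GFPlow. Thinned to 500 UMIs, co-detection with Foxp3 was 1.35 for Ikzf2, 1.26 for Nrp1 and 1.46 for Gpr83. Capg, Ikzf4 and Izumo1r showed little difference after thinning. Over all bins Capg was seen in 5.73% of thinned cells with Foxp3 and 5.90% of those without. For Ikzf4 these shares were 2.51% and 2.44%, and for Izumo1r 33.7% and 31.7%. Inside the effector gate at 3 UMIs the Foxp3 ratio was 0.27. The causes were not tested. Without the filter on low counts, 20.3% of genes were called higher in GFPhigh over GFPlow. No paired analysis was possible because each bin is 1 library. Ratios of Ikzf4 and Gpr83 are limited by their few UMIs.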
